A study of Mus musculus with 2 samples.

Results

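Capillary endothelial cells of the mouse aortic arch that carried Gpihbp1 and no detected Cxcl9 were examined, 1165 of the 8155 cells kept in both libraries together, 547 of 5416 in the ND library and 618 of 2739 in the HFD library. A cell was counted here if it had at least 1 unique molecular identifier (UMI, the count of 1 captured RNA molecule) of both Pecam1 and Cdh5, at least 3 UMIs of Gpihbp1 and none of Cxcl9. It also had fewer than 5 UMIs of Vwf and Vcam1 together, none of Ptprc, under 0.2% of its UMIs from C1qa, C1qb and C1qc, at most 2 of the 6 arteriolar genes Stc1, Igfbp3, Hey1, Sema3g, Eps8l2 and Slc26a10, and at most 2 of the 5 fibroblast genes Dcn, Col1a1, Col1a2, Col3a1 and Lum. Members were thus chosen by the measured UMIs of these genes in the same cells, and the levels of those genes are given as a description.

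The cells came from male Apoe−/− C57BL/6 mice of 16 weeks of age, fed a normal diet (ND) or a high-fat, high-cholesterol diet (HFD). The study gives the HFD food as holding added lard, sucrose, cholesterol and sodium cholate, fed from weaning on. The study gives the genotype of both diets as Apoe−/−, a deletion of apolipoprotein E, a ligand for the clearance of lipoprotein remnants. Apoe RNA was nevertheless counted, at 93.5 CPM in ND members and 79.5 CPM in HFD members and at 37.7 and 35.2 CPM in macrophage-rich cells with at least 0.2% of UMIs from C1q genes. Whether these UMIs come from a part of the gene outside the deletion was not tested. Each diet is 1 library made from 2 pooled aortas, so mice cannot be told apart, diet and library cannot be told apart, and no difference between the diets was tested. The arch was minced and digested with a lung dissociation enzyme mix before single-cell RNA sequencing.

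Capillary endothelium lines the smallest vessels, and in the wall and surroundings of a large artery it is found in the vasa vasorum and in the adjoining fat and muscle. GPIHBP1 is the protein of these cells that binds lipoprotein lipase, carries it to the lumen and holds it there, where triglyceride-rich lipoproteins are hydrolysed. The fatty acids released are taken up with the help of CD36 and bound in the cell by FABP4. CXCL9 is a chemokine that cells release under interferon gamma and that attracts T cells, and the rule sets aside cells in which its RNA was counted.

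Totals per cell set the precision. Members held a median of 2917 UMIs and 1278 genes in ND and 4977 UMIs and 1802.5 genes in HFD, with 20.3% and 23.8% of UMIs from mitochondrial genes at the median. Their UMIs summed to 1924317 and 3322660, and levels are given as CPM, counts scaled to the same total in every group. A range in parentheses is an exact 95% interval, which reflects the number of UMIs and leaves out how mice differ. Between the libraries, 39 barcodes were shared, 3 of them among ND members and 2 among HFD members. Of the ND and HFD members, 11 and 12 lay in the highest 6% of doublet scores of their library. Levels in lymphocytes, which should lack capillary genes, are given for comparison (540 cells in ND and 42 in HFD, with a median of 3144 and 5187.5 UMIs). The summed level of 5 airway genes in them was 3601 CPM in ND and 0 CPM in HFD.

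Members made up 10.1% (9.31 to 10.9%, Clopper-Pearson) of the kept ND cells and 22.6% (21.0 to 24.2%) of the kept HFD cells. Among the cells with both Pecam1 and Cdh5 they were 22.7% (21.1 to 24.5%) of 2405 in ND and 42.7% (40.1 to 45.3%) of 1447 in HFD. The Cxcl9 criterion removed more cells than any other step after the choice of cells with both Pecam1 and Cdh5. It took the cells left after the Gpihbp1 criterion from 1860 to 798 in ND and from 1201 to 930 in HFD. Next to the Gpihbp1 limit lay 52 ND and 21 HFD cells with 2 UMIs, which met all other criteria but not this one, and 43 and 17 members with 3 UMIs. Next to the limit on arteriolar genes lay 131 ND and 155 HFD members with 2 of these genes and 83 and 93 cells outside with 3.

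Whether a Cxcl9 UMI was seen went with the depth of the cell in both libraries. Among cells that met every other criterion, 825 of 1372 ND cells (60.1%) and 212 of 830 HFD cells (25.5%) had a Cxcl9 UMI. By depth, the share in ND went from 37.6% of cells under 2000 UMIs to 47.6%, 66.5% and 86.9% of cells with 2000 to under 4000, 4000 to under 6000 and 6000 or more UMIs. In HFD it was 14.2%, 19.5% and 39.5% in the last 3 ranges, below ND in each, and only 1 cell fell under 2000 UMIs. After each cell was thinned to 1000 UMIs, 28.3% of 1371 ND cells and 4.94% of 830 HFD cells still had a Cxcl9 UMI, 1 ND cell being too shallow. A cell without a Cxcl9 UMI is thus not shown to lack the RNA, and the ND members are the shallower part of their kind, with a median of 2917 UMIs against 4529 UMIs in the Cxcl9-positive ND cells.

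**Figure D1:**
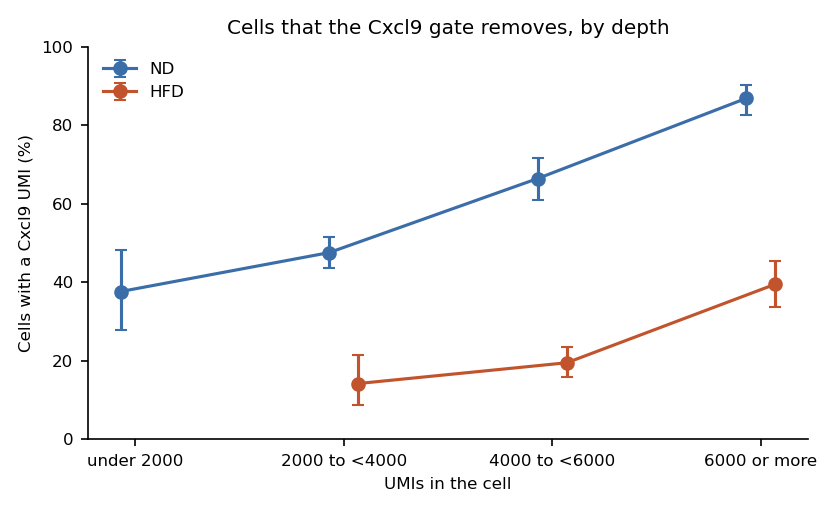
Share of capillary cells with at least 1 UMI of Cxcl9 (percent, vertical axis) against the UMIs of the cell (horizontal axis, 4 ranges) in the ND and HFD libraries, with exact Clopper-Pearson 95% intervals as bars. The rule removes the cells with a UMI. The share is higher in deeper cells of both libraries and is higher in ND than in HFD at each depth shown, 86.9% against 39.5% at 6000 or more UMIs, and the range under 2000 UMIs is not drawn for HFD, which has 1 such cell.

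Markers of capillary endothelium were present in members and set them apart from the luminal cells described below, but not from arteriolar cells. Gpihbp1 (chromosome 15, 75596628 to 75599481, plus strand, GRCm38), which the rule used, stood at 2473 CPM in ND and 2388 CPM in HFD. Per member, the Gpihbp1 count ran from 3 to 31 UMIs with a median of 8 in ND and from 3 to 47 with a median of 12 in HFD. Aqp1, a water channel of capillary walls, was at 3742 (3656 to 3829) CPM in ND and 2834 (2777 to 2891) CPM in HFD. Timp4, an inhibitor of matrix metalloproteinases, was at 373 and 535 CPM, Car4, a carbonic anhydrase of the capillary surface, at 354 and 499.9 CPM, and Tmem182 at 235 and 225 CPM. In the endothelial cells with at least 5 UMIs of Vwf and Vcam1, called luminal here (196 in ND and 88 in HFD), these 3 genes lay between 8.11 and 30.4 CPM. The lymphocytes held 0 to 11.4 CPM of them. All 5 markers, with Gpihbp1 and Aqp1, summed to 7176 and 6482 CPM in members and 860 and 1037 CPM in luminal cells. In arteriolar cells, those with 3 or more of the 6 arteriolar genes, the sum was 5244 and 4734 CPM. Over 17 capillary genes, the median log2 ratio of members over arteriolar cells was 0.03 in ND and 0.12 in HFD. Of them, 0 were past 2-fold in both libraries.

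Other markers of the capillary list that the rule did not use were also present. Rgcc, a regulator of the cell cycle, was at 1622 and 1849 CPM in ND and HFD, Cd300lg, a receptor of capillary endothelium, at 725 and 993 CPM, and the transcription factors Tcf15 and Meox2 at 503 and 434 CPM and at 119.5 and 132 CPM. In luminal cells Rgcc, Cd300lg, Tcf15 and Meox2 were at 94.4, 62.1, 42.0 and 22.6 CPM in ND, and each was lower in the HFD luminal cells. Tcf15 and Meox2 together are known from the capillaries of heart, muscle and fat, as are Aqp7, a glycerol channel, found at 443 and 574 CPM, and C1qtnf9, found at 395 and 228 CPM. Of 9 markers of lung capillaries, Ednrb at 371 and 491 CPM and Kitl at 492 and 773 CPM were the ones with enough UMIs to be compared. Ackr1, the defining receptor of venules, was at 0.520 and 0.301 CPM and Gja5, a connexin of arteries, at 1.56 and 1.81 CPM. Other genes of the venous and arterial lists were present, among them the venous transcription factor Nr2f2 at 65.5 and 69.2 CPM. The 11 venous genes summed to 565 and 535 CPM in members. The 18 arterial genes summed to 2654 and 2997 CPM, against 4281 and 4664 CPM in arteriolar cells. The arterial sum holds the 6 arteriolar genes of the rule, and the venous sum holds Vwf and Vcam1.

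**Figure D2:**
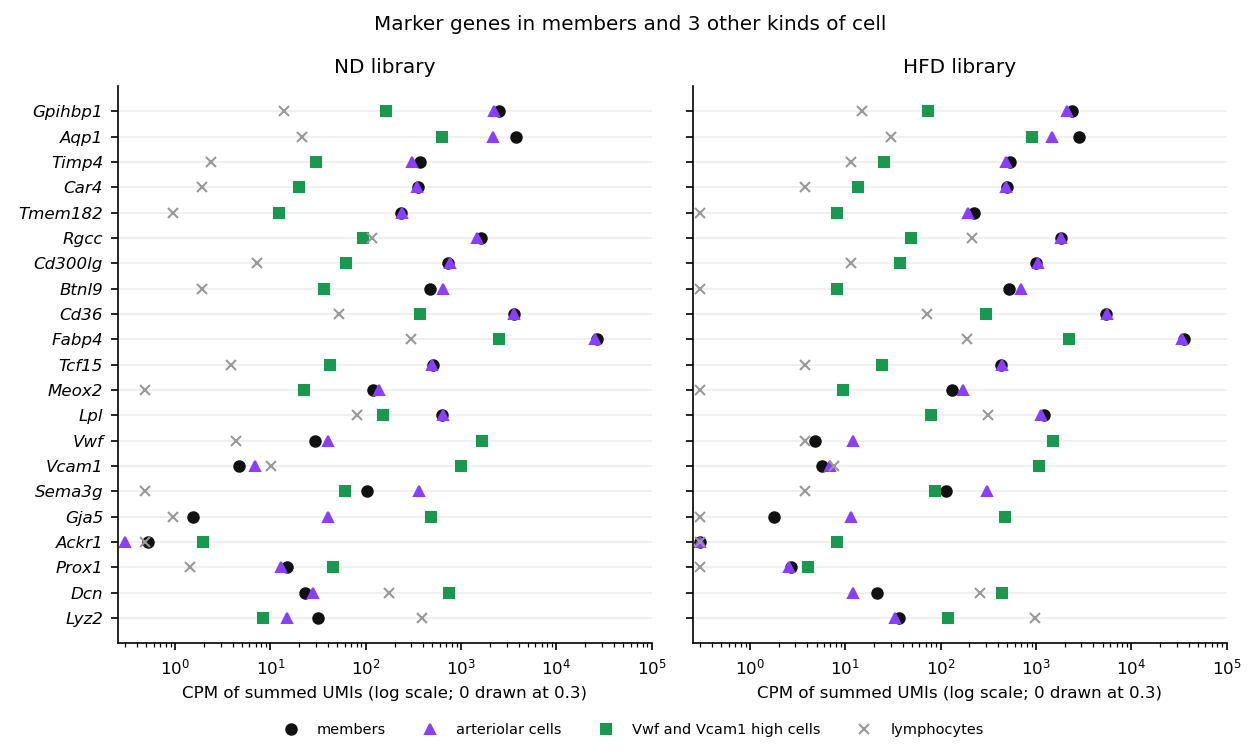
CPM of summed UMIs (horizontal axis, log scale, with 0 drawn at 0.3) of 21 marker genes in the ND and HFD libraries, with members as circles, arteriolar cells as triangles, Vwf and Vcam1 high cells as squares and lymphocytes as crosses. Capillary genes such as Gpihbp1, Timp4 and Car4 lie far to the right in members and arteriolar cells and to the left in Vwf and Vcam1 high cells, and the reverse holds for Vwf, Vcam1 and Gja5, low in members. The rule used Gpihbp1, Vwf, Vcam1, Sema3g and Dcn, and Vwf and Vcam1 define the squares. The places of these genes were set by that choice and are no result.

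For the lipid pathway, lipoprotein lipase and the handling of fatty acids come first. Lpl, the lipase that GPIHBP1 binds, was at 623 (588 to 659) CPM in ND and 1229 (1192 to 1268) CPM in HFD, a log2 ratio of HFD over ND of 0.98 (0.89 to 1.08). The lymphocytes held 80.0 and 318 CPM of Lpl, and the part of free RNA in the members' level was not tested. Angptl4, a secreted inhibitor of the lipase, was at 142 and 303 CPM (log2 ratio 1.09, 0.89 to 1.29), with 3.35 and 3.79 CPM in lymphocytes. Mgll, which cleaves monoglycerides, was at 915 and 1669 CPM, and Lipe, the hormone-sensitive lipase, at 75.9 and 125 CPM. Lipase, its inhibitor and the intracellular lipases were all higher in the HFD library, while Gpihbp1 itself was at nearly the same level in both, with a log2 ratio of −0.05.

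The fatty acid carriers followed with smaller ratios. Cd36 was at 3608 (3524 to 3694) and 5433 (5354 to 5513) CPM in ND and HFD, a log2 ratio of 0.59, and Fabp4 at 26343 and 35422 CPM, a log2 ratio of 0.43. Fabp4 alone made up a few percent of all member UMIs. Lower in the HFD library were Scarb1, the receptor of high-density lipoprotein, at 359 and 169 CPM (log2 ratio −1.09, −1.25 to −0.93), and Lipg, the endothelial lipase, at 30.7 and 13.8 CPM. Of the 27 lipid handling genes, 18 had enough UMIs to be compared (at least 100 over both libraries and at least 4 in each), of which 1 was 2-fold or more higher in HFD (Angptl4) and 2 were 2-fold or more lower (Scarb1 and Lipg), with a median log2 ratio of 0.22. Over all 5532 genes with enough UMIs, 1.9% were 2-fold or more higher and 4.21% were 2-fold or more lower, with a median of −0.13, so lipid genes lay above the bulk of genes by their median and their counts past 2-fold were few.

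That background depends on the scale. With CPM, 105 genes were 2-fold or more higher and 233 lower in HFD, so that 31.1% of the genes past 2-fold were higher. Scaled by the median of ratios, they were 169 higher and 147 lower (53.5% higher), and the median of all genes moved from −0.13 to 0.05. Leaving mitochondrial, haemoglobin and ribosomal protein genes out of the totals gave 142 and 175 (44.8% higher) and a median of −0.01. Ratios below are therefore best read against the median of all genes. By CPM, 1.58% of genes were 2-fold or more higher and 3.72% lower in HFD in the Cxcl9-positive cells, 1.35% and 3.2% in the arteriolar cells and 1.52% and 3.38% in the luminal cells.

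PPAR gamma is the nuclear receptor that drives lipid uptake genes in fat and in capillaries. Pparg itself was at 151 and 219.7 CPM in ND and HFD, and its target Rbp7, a retinol-binding protein, at 819 and 1161 CPM. Of 19 listed targets and receptors, 13 had enough UMIs, with 1 past 2-fold higher, none lower (1.9% and 4.21% of all genes) and a median of 0.26. Fatty acid oxidation enzymes, 16 of 19 with enough UMIs, held none past 2-fold in either direction and a median of 0.16, with Acadvl at 38.5 and 63.5 CPM and Hadhb at 154.9 and 123 CPM, 65 of its 298 ND UMIs being in 1 cell. Glycolytic genes had a median of 0.18 over 13 genes. In the Cxcl9-positive and arteriolar cells the medians of the lipid list were 0.04 and 0.27, and in luminal cells −0.19.

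Among the transporters, Slc6a6 (chromosome 6, 91684053 to 91759066, plus strand, GRCm38), the taurine transporter, was at 169.9 (152 to 189) CPM in ND and 1295 (1257 to 1334) CPM in HFD, 7.62-fold (6.81 to 8.55) higher in HFD. It was counted in 145 of 547 ND members and 573 of 618 HFD members, and after thinning to 1000 UMIs in 12.6% and 64.6% of them. The 5 highest HFD cells held 3.67% of its UMIs, so it was spread over the members. Lymphocytes held 80.0 and 83.3 CPM, at the same level in both libraries. The log2 ratio was 2.93 in members, 4.14 in Cxcl9-positive cells (63.7 and 1126 CPM), 2.21 in arteriolar cells (332 and 1529 CPM) and 2.65 in luminal cells (20.04 and 126 CPM).

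Ucp1, the uncoupling protein of brown fat, was at 9.35 (5.54 to 14.8) and 127 (115 to 140.0) CPM, 13.6-fold higher in HFD, and it was counted in 16 ND and 227 HFD members. The lymphocytes held 8.62 and 3.79 CPM of Ucp1. Of the other adipocyte markers, Adipoq was at 6.24 and 3.91 CPM and Cfd at 57.2 and 30.4 CPM, both lower in HFD, and Plin1 was at 3.64 and 6.32 CPM. Cidea, a lipid droplet protein of brown fat, was higher in HFD, at 15.6 and 27.4 CPM (log2 ratio 0.81, 0.20 to 1.46), and was, with Ucp1 and Cfd, 1 of the 3 of these genes with enough UMIs. The summed level of the 7 adipocyte genes was 96.1 and 197 CPM, most of it Ucp1 in HFD, and the part of fat cell RNA in it was not tested.

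Interferon gamma response genes were lower in the HFD library although every member lacks a Cxcl9 UMI. Of the 26 genes of that list in the files, 16 had enough UMIs. None of them was 2-fold or more higher and 7 were 2-fold or more lower in HFD, beside 1.9% and 4.21% of all genes. Their median log2 ratio was −0.98, against −0.13 for all genes, and −0.88, −0.86 and −0.96 in Cxcl9-positive, arteriolar and luminal cells. Guanylate-binding proteins, which attack vacuoles of microbes, included Gbp2 at 125 (109 to 142) and 41.5 (34.9 to 49.1) CPM and Gbp7 at 162 and 63.8 CPM. Psmb9, a subunit of the immunoproteasome, was at 125 and 37.3 CPM, a log2 ratio of −1.75 (−2.07 to −1.43). The most abundant was Iigp1, an interferon-inducible GTPase, at 588 and 256 CPM, with 9.58 and 22.7 CPM in lymphocytes.

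The members of that list that did not share the direction were 2 regulators. Irf1, a transcription factor induced early by interferon gamma, was at 253 (231 to 276) and 263 (246 to 281) CPM, and Socs1, the inhibitor of its receptor's kinases, at 84.2 and 88.5 CPM, with log2 ratios of 0.06 and 0.07. Because the Cxcl9 criterion removed a larger share of ND than of HFD cells, the ratios were also taken over members and Cxcl9-positive cells together, and the median of the list was then −1.01. Over all settings tried it lay between −1.25 and −0.81.

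Antigen presentation genes of class I followed the same direction. All 10 class I genes had enough UMIs and a log2 ratio below 0, beside 62.7% of all genes. Of them, 3 were past 2-fold lower, beside 4.21% of all genes, and their median was −0.90. H2-K1, a classical heavy chain, was at 2282 (2215 to 2351) and 1153 (1117 to 1190.1) CPM, H2-D1 at 1840.1 and 1171 CPM, and B2m, the light chain they share, at 2890.4 and 1969 CPM. H2-T23, a non-classical heavy chain, was at 213 and 78.6 CPM, and Tap2, a subunit of the peptide transporter, at 141 and 74.6 CPM. H2-Q6 and H2-Q7 are near-identical copies whose reads counting may divide between them, so their ratios of −1.02 and −1.21 are uncertain. Lymphocytes, which express class I genes themselves, held H2-K1 at 1815 and 1329 CPM, and the part of free RNA in the members' levels was not tested.

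Class II genes stood apart from class I. Cd74, the invariant chain, was at 122 and 87.6 CPM and H2-Aa at 46.8 and 35.8 CPM in members, against 6673 and 3687 CPM and 2241 and 1309.7 CPM in lymphocytes. Few member cells held most of it, the 5 highest having 69.7% of the Cd74 UMIs and 71.1% of the H2-Aa UMIs in ND and 51.2% and 47.1% in HFD. The part of lymphocyte RNA in the members' class II levels was not tested. The median of the 4 class II genes with enough UMIs was −0.43, and it was above 0 in 2 of the settings tried (0.17 with each cell given the same weight and 1.09 without the highest doublet scores). Type I interferon genes, 13 of 18 with enough UMIs, were all below 0 with a median of −0.71, and 3 were past 2-fold lower, Isg15 being at 126 and 61.4 CPM. Of all genes, 62.7% were below 0 and 4.21% past 2-fold lower.

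Promoters of 4 of the genes above that hold the letters of an interferon element are shown as examples, since most genes of the list had ratios below 0. The letters searched were GAAA with any 2 bases and GAAA after it, the core of the interferon-stimulated response element (ISRE), and TTCNNNGAA, the core of the gamma-activated sequence (GAS), on both strands of the 250 bases before each RefSeq transcript start on GRCm38.p6. Symbols of 19 of the 27 interferon gamma genes matched, with 22 promoters, of which 11 (50%) held the ISRE letters and 9 (40.9%) the GAS letters. Among all 32851 promoters the shares were 2.98% and 7.02%. Of 16 promoters of 14 type I genes, 8 (50%) held the ISRE letters, and of 10 class I promoters 2 did. In the sequences below, read 5′ to 3′ on the strand of the gene, capitals mark the matched letters, for Gbp2 and Gbp7 those of the ISRE at chr3:142620413-142620662 and chr3:142530086-142530335 on the plus strand, for Irf1 those of the GAS at chr11:53769764-53770013 on the plus strand, and for Isg15 3 overlapping ISRE matches at chr4:156200819-156201068 on the minus strand.
Gbp2: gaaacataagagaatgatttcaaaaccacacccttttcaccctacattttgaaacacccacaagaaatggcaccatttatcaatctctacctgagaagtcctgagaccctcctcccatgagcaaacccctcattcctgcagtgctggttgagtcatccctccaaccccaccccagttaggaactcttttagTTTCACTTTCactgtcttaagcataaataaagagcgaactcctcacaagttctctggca
Gbp7: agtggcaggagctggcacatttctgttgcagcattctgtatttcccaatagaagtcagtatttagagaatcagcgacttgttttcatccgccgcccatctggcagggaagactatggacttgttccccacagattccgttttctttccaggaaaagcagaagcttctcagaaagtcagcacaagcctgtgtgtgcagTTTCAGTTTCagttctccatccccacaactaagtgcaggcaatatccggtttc
Irf1: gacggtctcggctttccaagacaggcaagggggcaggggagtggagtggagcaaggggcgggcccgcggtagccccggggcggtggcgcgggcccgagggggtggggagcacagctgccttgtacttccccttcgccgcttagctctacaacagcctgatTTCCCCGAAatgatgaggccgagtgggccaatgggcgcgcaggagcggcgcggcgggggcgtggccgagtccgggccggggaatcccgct
Isg15: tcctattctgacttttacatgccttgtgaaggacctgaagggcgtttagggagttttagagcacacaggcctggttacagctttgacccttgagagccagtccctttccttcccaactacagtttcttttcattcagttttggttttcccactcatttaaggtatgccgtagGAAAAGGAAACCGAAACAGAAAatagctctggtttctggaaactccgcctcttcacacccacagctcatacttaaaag
The first matched letter lies 59 bases before the transcript start in Gbp2, 53 in Gbp7, 90 in Irf1 and 78 in Isg15. Gbp2, Gbp7 and Isg15, with the ISRE letters, were lower in the HFD library, and Irf1, with the GAS letters in 1 of its 2 promoters, was at nearly the same level. Gbp7 also holds the GAS letters, not marked in the sequence, and Socs1, whose promoter holds the ISRE letters, was at nearly the same level too. Whether genes with and without the letters differ in their ratios was not tested. B2m and H2-T23 are the 2 class I genes with the ISRE letters. A match is a run of letters and was not tested as a binding site.

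**Figure D3:**
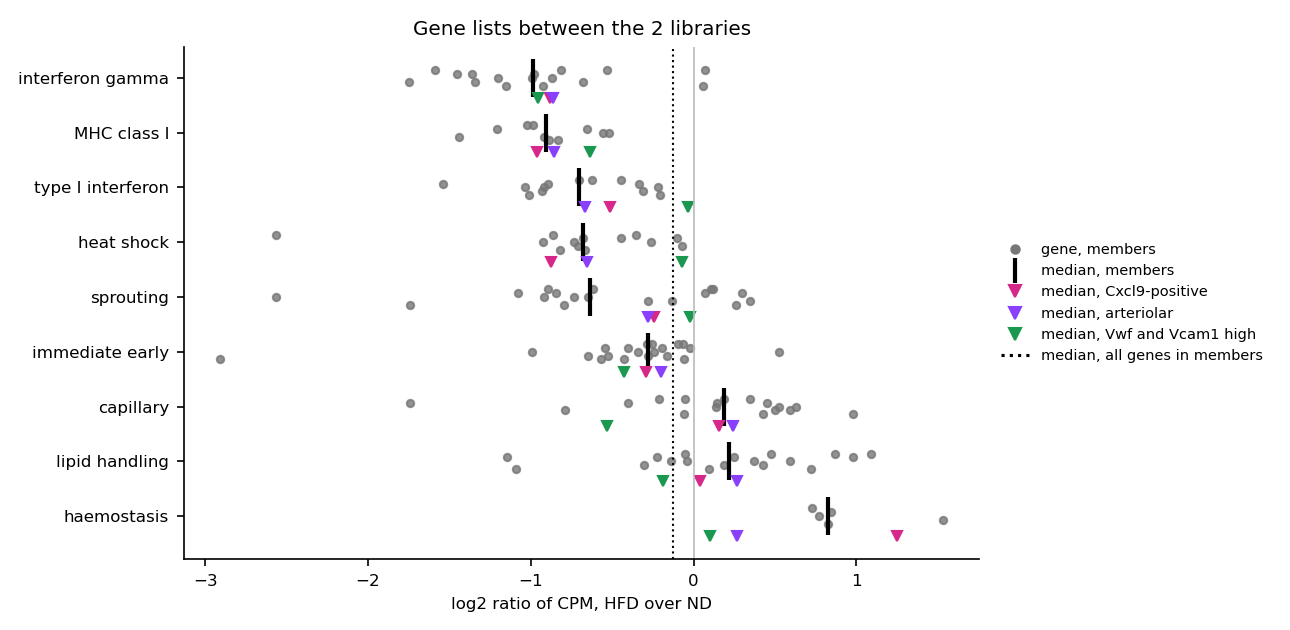
Log2 ratio of CPM, HFD over ND (horizontal axis), of each gene with enough UMIs in 9 gene lists, with members' genes as grey points and their median as a black bar, and the medians of the same lists in Cxcl9-positive, arteriolar and Vwf and Vcam1 high cells as triangles. The interferon gamma, class I and heat shock medians of the members lie at −0.98, −0.90 and −0.68, left of the dotted median of all genes at −0.13, and the haemostasis median lies at 0.83.

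Heat shock and early response genes, which dissociation of tissue is known to raise, differed between the libraries as well. All 13 heat shock genes had ratios below 0, with a median of −0.68 and 1 past 2-fold lower, Hsph1, a co-chaperone, at 78.5 and 13.2 CPM (log2 ratio −2.57). Hspa8, a constitutive chaperone, was at 2548 and 1399 CPM, Hspb1, a small heat shock protein, at 1779.8 and 1068 CPM, and Dnaja1, a partner of Hspa8, at 835 and 440.0 CPM. Of 20 early response genes, 19 had ratios below 0, with a median of −0.28, and the exception was Socs3 at 229.7 and 330.2 CPM. Fos and Egr1 were at 1286 and 1076 CPM and at 2762 and 2269 CPM. Ribosomal protein genes, 75 of 77 with ratios below 0, had a median of −0.38. Over all genes the share below 0 was 62.7% and the share past 2-fold lower 4.21%. Whether handling of the tissues had a part in these ratios was not tested.

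Genes of sprouting and of vessel form had a few large ratios. Of 18 sprouting genes, 12 (66.7%) had ratios below 0, near the 62.7% of all genes, and 3 were past 2-fold lower (4.21% of all genes), with a median of −0.63. Aplnr, the apelin receptor, was at 65.5 (54.5 to 78.0) and 19.6 (15.1 to 24.9) CPM, Tmsb4x, which binds actin monomers, at 13728 and 7404 CPM, and Dll4, the Notch ligand of tip cells, at 108 and 60.2 CPM. Plvap, which forms the diaphragms of fenestrae, was at 156 and 26.5 CPM, but 5 ND cells held 57.1% of its UMIs. Esm1, a marker of tip cells, had 67 UMIs in 20 ND members and 0 in HFD, at least 38.6-fold lower in HFD when 3 UMIs are put in place of 0, and 5 ND cells held 58.2% of them. Kdr, the receptor of vascular endothelial growth factor, went the other way, at 1040.4 and 1323 CPM.

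Among junction genes, 2 of 13 were past 2-fold lower in HFD and none higher, beside 4.21% and 1.9% of all genes, and 69.2% had ratios below 0, near the share over all genes, with a median of −0.32. The 2 were the connexin Gja1, at 267 and 101 CPM, and the adhesion molecule Jam3, at 70.7 and 31.6 CPM, while Cdh5 and Cldn5, the main proteins of adherens and tight junctions, had ratios of −0.11 and 0.06. Of the genes of vessel tone, Ece1, which makes active endothelin, was at 326 and 147 CPM, and Ddah2, which degrades an inhibitor of nitric oxide synthase, at 39.5 and 91.5 CPM. Nos3, the synthase, was at 101 and 114 CPM. In the transforming growth factor beta family, Tgfbr3, a co-receptor, was at 189 (170.2 to 209.6) and 47.9 (40.7 to 55.9) CPM, and Smad6, an inhibitor of the pathway, at 61.8 and 142 CPM.

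Genes of haemostasis, with products that dissolve clots and others that oppose this, were higher in the HFD library where they had enough UMIs. All 5 of the 12 haemostasis genes with enough UMIs had ratios above 0, with a median of 0.83, against 1.25 in Cxcl9-positive, 0.27 in arteriolar and 0.10 in luminal cells. Over all genes, 2065 of 5532 had ratios above 0. Anxa2, a receptor of plasminogen and its activator, was at 167 (149 to 186) and 483 (459.7 to 507) CPM, the one past 2-fold, with 159 and 140.1 CPM in lymphocytes. Plat, the tissue plasminogen activator, was at 49.9 and 89.4 CPM and Thbd, thrombomodulin, at 170.4 and 282 CPM. The rest of the list was under the UMI limit and was not compared. Of it, Vwf, which the rule capped, had 57 ND and 16 HFD UMIs, Tfpi 31 and 48 and Procr 21 and 21. By the totals of the libraries these were lower in HFD. Podxl, a sialomucin of the luminal surface, was at 347 and 773 CPM.

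The 10 highest and 10 lowest CPM ratios of HFD over ND, named by rank alone, were mostly of 2 kinds when the cells behind them were counted. The first kind rested on few cells. S100a8 and S100a9, genes of neutrophils, had 98.7% and 98.6% of their ND UMIs in 5 cells, and 1 cell held 447 of the 457 S100a8 UMIs. Scgb3a1, of airway cells, had 94.2% in 5 cells, and Scgb1a1, at 7335 UMIs in ND and 0 in HFD, had 6986 UMIs in 1 cell, while 222 ND members held at least 1 UMI of it. Lyve1, Fgl2, Igfbp5 and Cp had 93.8%, 91.3%, 89.5% and 84.2% of their ND UMIs in 5 cells. For these genes, the ratio describes a few barcodes and not the members at large.

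Lymphatic markers were such a case. Exactly 6 ND members (1.10%) and 0 HFD members had UMIs of 2 or more of Prox1, Lyve1, Pdpn, Mmrn1 and Reln, a share of up to 0.485% being allowed by the count of 0 in HFD. These 6 cells had a median of 7205 UMIs and held all Mmrn1 UMIs of the ND members, 99.7% of their Ccl21a UMIs and 94.5% of their Lyve1 UMIs. Without them, the counts past 2-fold were 108 higher and 223 lower, against 105 and 233 with them, and the log2 ratio of Igfbp5, a binding protein of insulin-like growth factors, went from −3.06 to −0.16.

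Haemoglobin genes, among the highest ratios in HFD, were spread over more cells there, with Hbb-bs UMIs in 517 of the 618 HFD members and 11.3% of them in the 5 highest cells. In ND the 5 highest cells held 70.3%. Hbb-bs was at 4631 and 23839.9 CPM in members and at 2287 and 15179 CPM in lymphocytes, and Hbb-bt, Hba-a1 and Hba-a2 had log2 ratios of 2.70, 2.36 and 2.42. Hba-a1 and Hba-a2 are near-identical copies, so the split between them is uncertain. Haemoglobin was over 5% of UMIs in 9 ND (1.65%) and 88 HFD members (14.2%), and without these cells the log2 ratio of Hbb-bs was 1.04 and the counts past 2-fold were 110 higher and 196 lower.

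Pericyte genes were also among the highest ratios. Abcc9 and Kcnj8, subunits of a potassium channel of pericytes, were at 5.20 and 41.2 CPM and at 1.56 and 16.0 CPM in ND and HFD, and Postn, a matrix protein, at 8.83 and 60.8 CPM. The 5 highest HFD cells held 35.8%, 49.1% and 37.6% of their UMIs. All 7 pericyte markers were above 0 in both libraries and summed to 138 and 428 CPM, with Rgs5 at 117 and 316 CPM and Pdgfrb at 4.16 and 19.9 CPM. The part of pericyte RNA in the members was not tested. Spp1 and Gpnmb, genes of foamy macrophages, had 0 and 1 UMI in ND and 44 each in HFD, of which 1 cell held 11 and 23, and HFD lymphocytes held them at 257 and 56.8 CPM.

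The second kind was spread over many cells. Of the 5532 genes compared, 5257 had under 20% of their UMIs in the 5 highest cells of the library in which they were higher, and 92 of these were past 2-fold higher in HFD and 188 lower. Among the 20 ranked genes they were Ucp1, Slc6a6, the haemoglobin genes and Ramp3 on the HFD side and Stxbp6 and Apol10b on the ND side. Ramp3, a partner of the adrenomedullin receptor, was at 9.35 and 48.8 CPM. Stxbp6, which binds the fusion machinery of vesicles, was at 88.3 (75.6 to 103) and 7.83 (5.11 to 11.5) CPM, and Apol10b, an apolipoprotein L, at 79.5 and 10.2 CPM. Both were lower in HFD in the Cxcl9-positive cells as well, at 103 and 14.1 CPM and at 90.0 and 15.5 CPM. Nostrin, which moves nitric oxide synthase from the membrane, had 2 UMIs in ND and 85 UMIs in 69 HFD cells, and Bean1 had 1 and 62 UMIs.

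**Figure D4:**
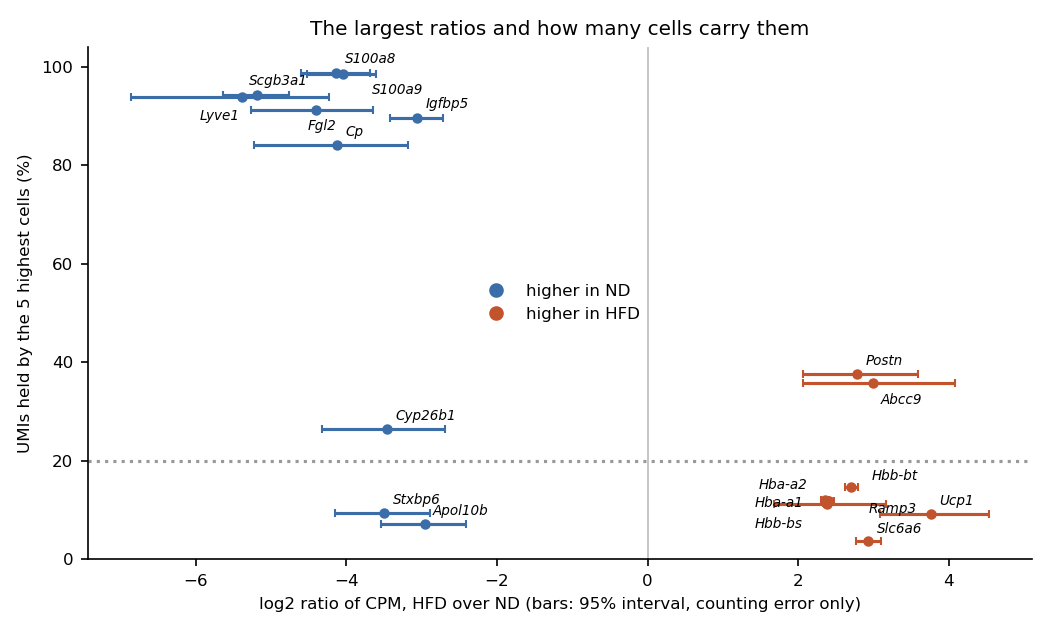
Log2 ratio of CPM, HFD over ND (horizontal axis, bars are 95% intervals from counting error only) of 19 of the 20 genes with the largest ratios, against the share of UMIs held by the 5 highest cells of the library where the gene is higher (vertical axis, percent), blue for higher in ND and red for higher in HFD. Genes above the dotted line at 20% differ in how few cells they rest on. S100a8, at 98.7%, had UMIs in 11 ND cells, and Abcc9, at 35.8%, in 47 HFD cells. Slc6a6, at 3.67%, lies lowest.

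Further spread genes were chosen after their values were seen and are given as values alone. Higher in HFD were Cdkn1c, an inhibitor of the cell cycle, at 150.2 and 592 CPM, Emp1, a membrane protein, at 69.6 and 284 CPM, and Asns, asparagine synthetase, at 13.0 and 55.1 CPM. Lower in HFD were Sult1a1, a sulfotransferase, at 194.9 and 43.0 CPM, Srf, the serum response factor, at 192 and 47.6 CPM, Cd44, a hyaluronan receptor, at 76.9 and 18.7 CPM, and Kit, the receptor of stem cell factor, at 47.3 and 8.43 CPM. Its ligand Kitl was higher in HFD, as given above. These 7 genes had between 6.24% and 16.5% of their UMIs in 5 cells. In luminal cells Cdkn1c was lower in HFD, at 68.5 and 36.5 CPM. Cd44 and Kit were higher in HFD there, at 36.2 and 66.2 CPM and at 9.05 and 44.6 CPM. The rest of the 7 had the members' direction in luminal cells.

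Against the Cxcl9-positive cells, which met every other criterion (825 in ND and 212 in HFD), members were nearly the same. Of 7060 genes with at least 50 UMIs in each library, 83.0% lay within 0.5 on the log2 scale in both libraries, 2 (0.0283%) were 2-fold or more higher in members in both libraries and 5 (0.0708%) 2-fold or more lower, Cxcl9 itself, on which the rule rests, being among these. Higher were Fbln5, a protein of elastic fibres, at 33.8 against 7.82 CPM in ND and 30.7 against 13.4 CPM in HFD, and Sorbs2, an adaptor of the cytoskeleton, at 42.1 against 5.65 CPM and 12.9 against 6.05 CPM. S100a6, a calcium-binding protein, was at 240.1 against 76.0 CPM in ND and 421 against 255 CPM in HFD. Lower was Cxcl10, a chemokine of the same receptor as CXCL9, at 18.2 against 69.7 CPM in ND and 5.12 against 28.2 CPM in HFD. Pbld1 was at 13.0 against 34.8 CPM and 16.0 against 45.7 CPM, and Ifit1, an antiviral protein, at 79.5 against 138 CPM and 48.8 against 109.6 CPM.

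Interferon genes other than Cxcl9 were mostly lower in members than in these cells, by less than 2-fold at the median. Of 18 genes of the interferon gamma list compared, 14 (77.8%) were lower in members in both libraries, beside 39.5% of all genes, with median log2 ratios of −0.23 in ND and −0.51 in HFD, beside −0.06 and −0.08 for all genes. Iigp1 was at 588 against 862 CPM in ND and 256 against 372 CPM in HFD. The medians of the 10 class I genes were −0.17 in both libraries. Aqp1 was lower in members, at 3742 against 5556 CPM and 2834 against 3570.3 CPM, and Rbp7 was higher, at 819 against 494 CPM and 1161 against 924 CPM. Depth differed with the kind of cell as given above.

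Arteriolar cells, those with 3 or more of the 6 arteriolar genes and any Gpihbp1 and Cxcl9 (320 in ND and 219 in HFD), were compared with members in the same way. Of 6821 genes, 77.3% lay within 0.5 in both libraries, 4 (0.0586%) were 2-fold or more higher in members in both and 49 (0.718%) lower, among which are genes that the rule used. In the arteriolar cells Gpihbp1 was at 2187 CPM in ND and 2103 CPM in HFD, Cd36 at 3557 and 5545 CPM, and Fabp4 at 25309 and 34275 CPM, close to the members' levels. Lower in members were Col8a1, a collagen of vessel walls, at 11.4 against 105 CPM in ND and 6.62 against 59.7 CPM in HFD, and Clu, clusterin, at 18.7 against 81.2 CPM and 17.8 against 123 CPM. Stmn2, which binds tubulin, was at 19.2 against 84.8 CPM and 23.5 against 103 CPM. Fbln5 was lower too, at 33.8 against 161 CPM and 30.7 against 221 CPM, so members lay between the Cxcl9-positive and the arteriolar cells for this gene.

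The 3 genes with the largest ratios over arteriolar cells rested largely on few member cells. Aldh1a3, which makes retinoic acid, was at 23.9 against 5.93 CPM in ND and 13.5 against 4.45 CPM in HFD, with UMIs in 6 ND and 12 HFD members. H2-Aa was at 46.8 against 16.4 CPM and 35.8 against 17.2 CPM, and H2-Ab1 at 41.6 against 18.7 CPM and 32.5 against 15.3 CPM, with the lymphocyte levels of class II genes as given above and with 62.5% and 45.4% of the H2-Ab1 UMIs in 5 cells. Aqp1 was at 3742 against 2163 CPM and 2834 against 1465 CPM, short of 2-fold.

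Within the members, levels went with the number of arteriolar genes, which itself goes with depth. Split by how many of the 6 arteriolar genes a cell held (0, 1 or 2), with the splitting genes no result, Aqp1 was at 4845, 3849 and 2012 CPM in ND and 3395, 2932 and 2057 CPM in HFD. Nr2f2, of veins, was at 76.7, 89.2 and 22.4 CPM in ND and 75.7, 80.2 and 44.5 CPM in HFD. Rbp7 ran the other way, at 340.1, 922 and 1401 CPM in ND and 874, 1172 and 1458 CPM in HFD, as did Efnb2, the ephrin ligand of arteries, at 139, 205 and 279 CPM and 154, 203 and 292 CPM. Cd36 was nearly level, between 3549 and 3656 CPM in ND and between 5299 and 5512 CPM in HFD. Of 3525 genes compared, 6 (0.17%) were 2-fold or more higher in cells with 2 than in cells with 0 of these genes in both libraries and 0 were 2-fold or more lower, and the 6 were Unc5b, Plat, Slc12a7, Abcb1a, Crybg1 and Rgs3.

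Cells with more arteriolar genes were deeper, with medians of 2696, 2976 and 3454 UMIs in ND and 4557, 5000.0 and 5385 UMIs in HFD. Thinned to 1000 UMIs before the split, Aqp1 was at 4246, 3328 and 2556 CPM in ND and 2934, 2463 and 1200.0 CPM in HFD, still in falling order. Rbp7 kept its order in ND, at 649.6, 1156 and 1704 CPM, but in HFD was at 1109, 1545 and 1100.0 CPM, where the last level held 10 cells. The order of Efnb2, Nr2f2, Unc5b and Btnl9 was not kept in both libraries at this depth. The last level held 27 ND and 10 HFD cells here, so orders that turn on it, kept or not, are uncertain. Efnb2 was at 179, 312.5 and 259 CPM in ND, and Nr2f2 was at 53.7, 31.25 and 37.0 CPM in ND, and in HFD it was highest in the last level. In HFD, Unc5b was at 72.2, 89.4 and 0 CPM and Btnl9 at 526, 545 and 500.0 CPM. Cxcl12 and Slc6a6 were higher with each step in both libraries, with and without thinning, the last thinned HFD step resting on those 10 cells. Thinned, Cxcl12 was at 591, 711 and 778 CPM in ND and 1002, 1276 and 1300 CPM in HFD. Slc6a6 was then at 138, 234 and 259 CPM in ND and 1311, 1341.5 and 1800 CPM in HFD.

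**Figure D5:**
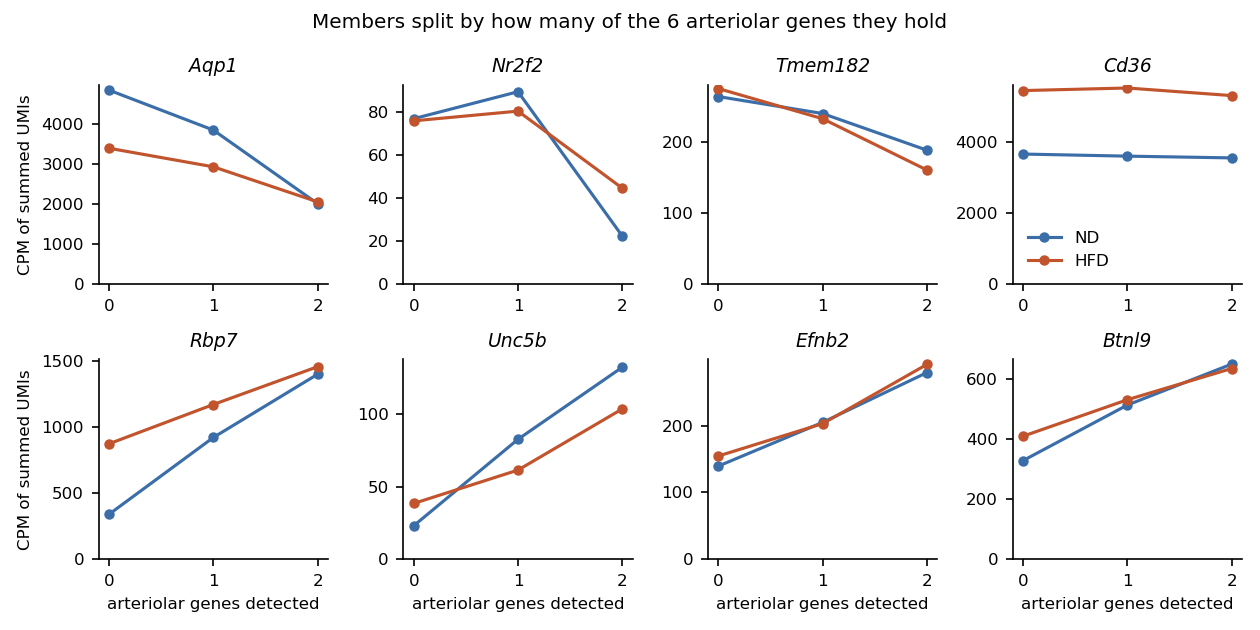
CPM of summed UMIs (vertical axes, from 0) of 8 genes in members with 0, 1 or 2 of the 6 arteriolar genes (horizontal axes), with ND in blue and HFD in red. Aqp1 goes from 4845 to 2012 CPM in ND and from 3395 to 2057 CPM in HFD, Rbp7, Unc5b, Efnb2 and Btnl9 are higher with each step in both libraries, and Cd36 is nearly level. In cells thinned to 1000 UMIs the steps of Rbp7, Unc5b and Btnl9 in HFD and of Efnb2 in ND were not all upward. The last thinned HFD level held 10 cells.

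From cell to cell, members varied most in haemoglobin RNA. By the ratio of variance to mean of UMIs in cells thinned to 1000 UMIs, over 2332 genes, Hbb-bs led at 181 in ND and 155 in HFD, against a median of 1.04 and 1.02 over genes. Fabp4 was at 5.43 and 4.54, Rgs5 at 2.50 and 2.87 and Aqp1 at 3.12 and 2.18, all above that median in both libraries. At the same relative spread this ratio is higher for genes with more UMIs, so the order of genes also reflects their level. Malat1, a nuclear RNA, the mitochondrial genes mt-Atp6, mt-Co3 and mt-Co1, and Mt1, a metallothionein, made up the rest of the 10 leading genes with Hba-a1 and Hba-a2.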

How the data were processed

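The deposited values are raw counts of UMIs per barcode, over 31053 genes, in the ND and the HFD library, made by the authors with Cell Ranger (3.0.1 per the file headers) on mm10 per the labels, without normalization. The submitters' processing notes also name bcl2fastq, UMI-tools, Seurat 3.2.0 and R 4.0.0. A joined matrix of both libraries held the same counts (0 entries differed over 24459 barcodes) and was not used further. Gene positions are those of GENCODE M21 on GRCm38, and promoters those of RefSeq on GRCm38.p6.

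The study's limits were used to keep barcodes: 200 or more genes, 200 or more UMIs and no more than 30% of UMIs from mitochondrial genes. Groups come from the labelled diet. UMIs were summed over members and divided by all their UMIs, as CPM. Members hold 1924317 ND and 3322660 HFD UMIs, so 3 UMIs correspond to about 1 CPM or less in HFD and intervals of low genes are wide. Intervals are exact at 95%, by the Poisson distribution for a sum, the Clopper-Pearson method for a share and the conditional binomial distribution for a ratio, and cover counting error only. With 1 library per diet no test was run. For HFD against ND, genes needed 100 or more UMIs over the 2 libraries and 4 or more in each, and between kinds of cell at least 50 in each library. A ratio was counted from 2-fold on. Where a count was 0, 3 UMIs over the group stood in its place. Thinning drew 1000 UMIs from each cell. Scrublet in scanpy 1.11.5 marked 0 ND cells and 1 HFD cell, so doublets were not removed and the highest 6% of scores were left out as an alternative. The counting and ratio steps were tested on simulated data.

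Genes were named by rule: the markers and rule genes, the 10 highest and 10 lowest ratios, the 5 genes with the most UMIs among those with 3 or fewer in the other library, the 8 highest and 8 lowest against each other kind of cell, the 10 most variable genes and the members of the gene lists. Of these, 3 genes are not reported here. The members and lists were chosen with earlier results of these data known. Alternatives changed the limits, the scaling, the weight of cells, doublets and the cells left out. Python 3.11.15, numpy 2.4.6, scipy 1.17.1, pandas 2.3.3 and matplotlib 3.10.9 were used.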

Additional observations from a re-analysis of the deposited data

Results flagged for a closer look

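Barcodes above the limit of 30% mitochondrial UMIs, which no comparison above uses, held cells that met every other criterion. They were 187 of 2299 such barcodes in ND (8.13%) and 1753 of 7215 in HFD (24.3%), the HFD number being above that of the 618 members themselves. Their median depth was 1854 UMIs in ND and 2493 UMIs in HFD, and a median of 35.1% and 45.1% of UMIs was mitochondrial. In them Slc6a6 was at 253.5 and 1098 CPM, Lpl at 681 and 1106 CPM and Iigp1 at 410.2 and 178 CPM in ND and HFD, the same directions as in members.

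Among the 326 named and listed genes with enough UMIs, 6 were past 2-fold between the diets in members and went the other way in another kind of cell. There the log2 ratio had to be at least 0.5 in size, with enough UMIs and with neither interval holding 0. Genes outside these lists were not searched, and Cdkn1c, Cd44 and Kit, given above, also went the other way in luminal cells. These differences were not tested. Igfbp5 had a log2 ratio of −3.06 in members and 1.68 in Cxcl9-positive cells, and the members' value was −0.16 without the 6 ND cells with lymphatic markers. Igkc, an immunoglobulin chain of B cells, had −1.66 in members and 1.48 in arteriolar cells, with 66.3% of its ND UMIs in 5 members. Plvap had −2.56 in members and 0.89 in luminal cells, with 57.1% of its ND UMIs in 5 members. Postn had 2.78 in members and −3.95 in luminal cells. Smad6 had 1.20 in members and −1.20 in luminal cells. Sorbs2 had −1.70 in members and 0.67 in luminal cells, with 81 ND and 43 HFD UMIs in members.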

How the results depend on the processing

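No paired analysis was possible because each diet is 1 library. The share of members among kept ND cells, 10.1%, was 7.59% at a mitochondrial limit of 20%, 11.9% with Gpihbp1 at 1 UMI or more, 8.03% with Gpihbp1 at 5 or more and 5.62% after thinning. In HFD, 22.6% became 14.3% at the limit of 20%, 20.8% with Gpihbp1 at 5 or more and 7.85% after thinning, and was above ND in each. The counts past 2-fold, 105 higher and 233 lower in HFD, became 169 and 147 with the median of ratios, 60 and 140 at the limit of 20%, 170 and 384 from 50 UMIs on and 61 and 121 from 200 UMIs on, the last 3 with other numbers of genes compared. Genes 2-fold higher than in Cxcl9-positive cells were 4 instead of 2 when these needed 2 Cxcl9 UMIs, and genes higher than in arteriolar cells were 8 instead of 4 with each cell given the same weight. The median of the class II list, −0.43, was 0.17 with equal weight and 1.09 without the highest doublet scores, from 4 genes. In the barcodes above the mitochondrial limit, Igfbp5 was at 0.12 and Mgp, a matrix protein, at −1.11 on the log2 scale, against −3.06 and 1.04 in members. The cause of these shifts was not tested.

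Of the other values, 2526 of named genes lay within their interval of the main value and 581 moved beyond it. For list medians these numbers were 278 and 36. Changes of sign of values near 0 were not counted apart. The median of a list of arterial genes, 14 of them compared, was −0.01 on the log2 scale and ran from −0.24 to 0.31 over the settings. The settings without lymphatic-marked cells, without cells over 5% haemoglobin, with thinned levels by arteriolar genes, with Cxcl9-positive cells added and with barcodes above the mitochondrial limit were chosen after seeing the data. Depth limits which cells count as free of Cxcl9, and genes under 100 UMIs were not compared.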
